A study of Mus musculus with 15 samples.

Results

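Cxcl1, Cxcl2, Cxcl3 and Cxcl5 encode the CXC chemokines that attract neutrophils, and their transcript levels were followed here across all treatments of mouse embryonic fibroblasts (MEFs). These 4 genes, out of 23462 named on the array, were chosen for what their proteins do, though with earlier results of these data known. Each was measured by the 1 probe that matched its RefSeq transcript: NM_008176 for Cxcl1, NM_009140 for Cxcl2, NM_203320 for Cxcl3 and NM_009141 for Cxcl5. The arrays were designed to compare MEFs driven towards an inflammatory or a fibrotic state by cytokines. The study later placed Cxcl1 and Cxcl5, and also C3, Ccl2, Mmp3 and Dcn named below, in a gene set that it selected on the control, TNFα and TGFß1 arrays. The values of these genes in those groups are thus a description of the arrays behind that choice and not independent evidence.

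MEFs in this series were cells of the established 3T3 line (Balb/c/3T3, clone A31), so all arrays come from a single clone kept in culture. There were 5 groups with 3 arrays each: untreated control MEFs, MEFs treated by TNFα at 10 ng/ml, by IL-1β at 1 ng/ml, by IL-6 at 20 ng/ml together with its soluble receptor sIL-6Rα at 25 ng/ml, and by TGFß1 at 5 ng/ml. The labels give the culture time as 24 or 72 hours. The study's results and figure legend give 24 hours for the control, TNFα and TGFß1 arrays. The time of the IL-1β and IL-6 arrays was not settled by the sources used here. The study describes 3 independent experiments for the control, TNFα and TGFß1 arrays, and the sources used here do not say whether this also holds for the IL-1β and IL-6 arrays. In the text an array is named by its group and its label number, for example TNFα 14.

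CXC chemokines of this family carry a glutamate-leucine-arginine (ELR) motif before their first cysteines and bind the receptor CXCR2, through which they draw neutrophils out of the blood. In mice, Cxcl1 is also known as KC, Cxcl2 as MIP-2, Cxcl3 as DCIP-1 and Cxcl5 as LIX. Fibroblasts and other stromal cells make them in response to TNFα and IL-1β through the transcription factor NF-κB, and their short-lived transcripts are further controlled by RNA-binding proteins.

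The 4 genes lie in a cluster on mouse chromosome 5, where the order of the protein-coding genes is Cxcl5, Ppbp, Pf4, Cxcl3, Cxcl15, Cxcl1, Cxcl2. The stretches just upstream of the transcription start are shown for Cxcl1, Cxcl2 and Cxcl3 because the 3 genes share the same short elements there. The RefSeq promoter table (GRCm38.p6) held 3 of the 4 genes. The 150 bases before the start, all on the plus strand, run 5′ to 3′, with capitals marking every run of at least 8 bases that the 3 genes had in common in the 250 bases before their starts.
Cxcl1, chr5:90891095-90891244: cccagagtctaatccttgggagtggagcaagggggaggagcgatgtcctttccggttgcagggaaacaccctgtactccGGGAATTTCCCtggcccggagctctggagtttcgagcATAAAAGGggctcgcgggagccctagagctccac
Cxcl2, chr5:90903749-90903898: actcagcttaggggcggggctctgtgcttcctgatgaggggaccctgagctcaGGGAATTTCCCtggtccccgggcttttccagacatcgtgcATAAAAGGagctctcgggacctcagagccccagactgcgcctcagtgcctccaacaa
Cxcl3, chr5:90785951-90786100: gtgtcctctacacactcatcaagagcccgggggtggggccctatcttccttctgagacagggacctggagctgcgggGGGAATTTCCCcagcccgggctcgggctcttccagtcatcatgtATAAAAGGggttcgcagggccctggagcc

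The first shared run, GGGAATTTCCC, has the form of the κB element that NF-κB dimers bind, and it began 71 bases before the start of Cxcl1, 97 before that of Cxcl2 and 73 before that of Cxcl3. Searched on both strands in the 250 bases before each start, this run was in 14 of 32851 promoter windows, or 0.0426%, and 3 of those 14 were Cxcl1, Cxcl2 and Cxcl3. The second run, ATAAAAGG, has the form of a TATA box and was in 1.54% of the windows. It began 34 bases before the start of Cxcl1, 57 before that of Cxcl2 and 29 before that of Cxcl3. The upstream stretches of Ppbp, Pf4 and Cxcl10 did not hold the first run, which says only that these letters were not in that window. The second run was in the stretch of Ppbp and not in those of Pf4 and Cxcl10. The runs were found by comparing the stretches of Cxcl1, Cxcl2 and Cxcl3, so that all 3 share them is how they were chosen.

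Each array gave a signal per probe that was scaled to the array's own 75th percentile of signal, which lay between 507.5 and 682.9 before scaling. Levels are given as log2 of this scaled signal, so that 0 is the 75th percentile, and the unscaled signal is given beside them. A probe was tested if it was well above background on all arrays of at least 1 group, which 29333 probes were, and the call of a difference needed both a fold-change of 1.5 or more and a q-value under 0.05. Between 48.28% and 54.82% of spots per array were well above background and no spot was saturated. The arrays lay on 2 slides that each held all 5 groups, so differences are also given within each slide where they bear on a member. In cultures, a change in RNA per cell and a change in the number of cells that make it cannot be told apart.

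Cxcl1 was strongly higher in MEFs treated by TNFα or IL-1β and strongly lower in MEFs treated by TGFß1. Its signal was 1729, 1560 and 1168 on control 1, 6 and 11, and 19850, 18919 and 14388 on TNFα 4, 9 and 14. It was 23558, 27326 and 27673 on IL-1β 5, 10 and 15. It was 2403, 2339 and 2306 on IL-6 3, 8 and 13, and 203, 103 and 192 on TGFß1 2, 7 and 12. No array of a group overlapped with an array of another group, and TGFß1 7 was the lowest of all. The mean levels on the scaled log2 scale were 1.27 ± 0.07 in controls, 4.91 ± 0.29 with TNFα, 5.41 ± 0.14 with IL-1β, 1.92 ± 0.12 with IL-6 and -1.82 ± 0.50 with TGFß1 (SD, n = 3 each).

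Compared to controls, the log2 fold-change of Cxcl1 was 3.64 with TNFα (SE 0.21, q = 8.82e-07, 12.5-fold higher), in a comparison where 4.12% of tested probes were called higher and 6.06% lower. With IL-1β it was 4.14 (SE 0.21, q = 2.03e-06, 17.6-fold higher), where only 0.245% of probes were called higher and 0.00682% lower. With TGFß1 it was -3.09 (SE 0.21, q = 2.49e-06, 8.51-fold lower), where 7.17% were called higher and 10.8% lower. With IL-6 the difference of 0.65 (SE 0.21, 95% interval 0.18 to 1.11) did not pass (q = 0.881), although all 3 IL-6 arrays lay above all 3 controls. In that comparison 0.0648% of probes were called higher and 0% lower by limma, with 565 probes higher and 390 lower at an unadjusted p under 0.05. On slide 1 the 4 differences were 3.33 with TNFα, 4.09 with IL-1β, 0.71 with IL-6 and -3.66 with TGFß1, and on slide 2 they were 3.80, 4.24, 0.52 and -2.80.

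Cxcl5 was higher with TNFα, higher still with IL-1β, and lower with TGFß1 than in control MEFs. Its signal was 1626, 2076 and 1102 on control 1, 6 and 11, and 11837, 15887 and 9510 on TNFα 4, 9 and 14. It was 47606, 55733 and 61594 on IL-1β 5, 10 and 15. It was 2741, 3910 and 3767 on IL-6 3, 8 and 13, and 83.4, 80.1 and 83.6 on TGFß1 2, 7 and 12. The groups did not overlap, and the 3 TGFß1 arrays lay closer together than those of any other group on the scaled log2 scale. On the scaled log2 scale the mean levels were 1.35 ± 0.29 in controls, 4.38 ± 0.35 with TNFα, 6.47 ± 0.20 with IL-1β, 2.46 ± 0.29 with IL-6 and -2.77 ± 0.04 with TGFß1 (SD, n = 3 each).

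Cxcl5 rose 34.9-fold with IL-1β (log2 fold-change 5.13, SE 0.20, q = 1.77e-07) and 8.18-fold with TNFα (3.03, SE 0.20, q = 2.46e-06), and fell 17.3-fold with TGFß1 (-4.12, SE 0.20, q = 2.6e-07). Among the 29333 probes it had the rank 4 from the highest with IL-1β, with Cxcl1 at rank 6, and the rank 28 from the lowest with TGFß1. With TNFα the ranks from the highest were 59 for Cxcl1 and 101 for Cxcl5. With IL-6 the log2 difference of 1.11 (SE 0.20, 95% interval 0.67 to 1.56) did not pass (q = 0.117), with all 3 arrays above all controls. With the slide as a block the same difference passed (q = 0.0293). In the order of their label numbers the arrays fall into 3 runs, each with 1 array of every group. The main fit did not take these runs into account, and the sources used here do not say whether a run was 1 experiment. With the slide and the run of label numbers as blocks the Cxcl5 difference with IL-6 passed as well (1.11, SE 0.09, q = 0.00136). On slide 1 the differences from control were 2.82 with TNFα, 5.20 with IL-1β, 1.26 with IL-6 and -3.94 with TGFß1, and on slide 2 they were 2.89, 4.98, 0.82 and -4.45.

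**Figure D1:**
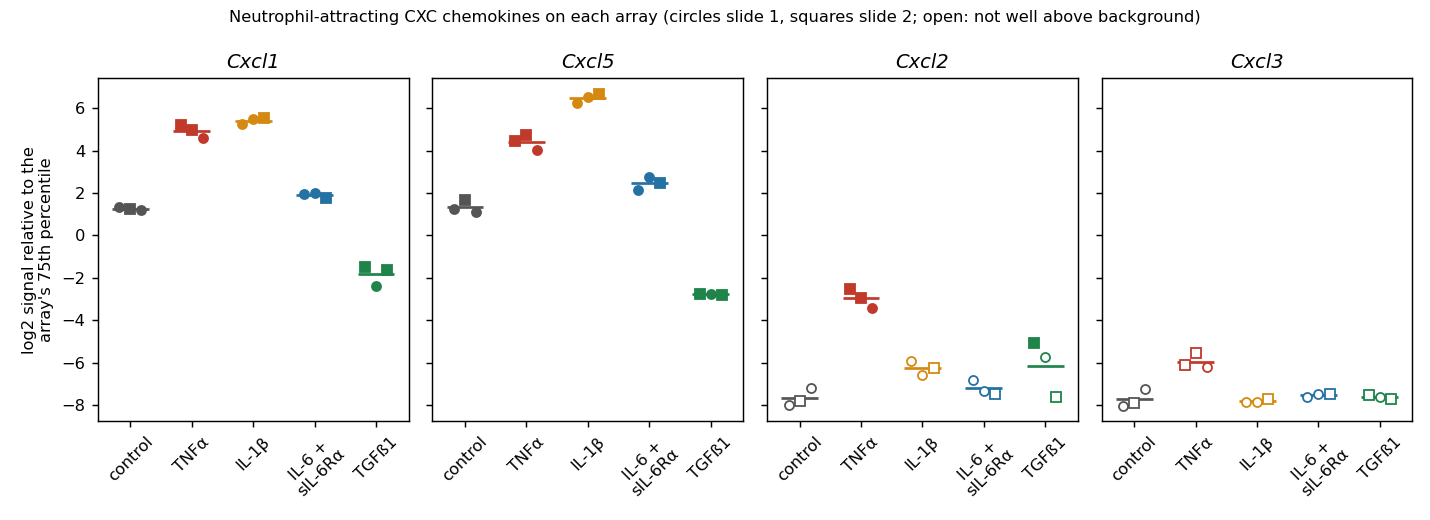
Log2 signal relative to the array's 75th percentile for Cxcl1, Cxcl5, Cxcl2 and Cxcl3 on each of the 15 arrays, by group, with a line at the group mean, circles for slide 1, squares for slide 2 and open symbols where the probe was not well above background. Cxcl1 and Cxcl5 were measured on every array and ordered the groups alike, Cxcl2 was measured on 4 arrays and Cxcl3 on 0.

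From the lowest to the highest level, the order of the groups was TGFß1, control, IL-6, TNFα and IL-1β for both Cxcl1 and Cxcl5. For Cxcl1, the neighbours control and IL-6 and the neighbours TNFα and IL-1β did not differ by the test, the latter by 0.50 on the log2 scale (95% interval 0.03 to 0.96, q = 0.227) in a comparison where 4.83% of probes were called in either direction. With the slide and the run of label numbers (1 to 5, 6 to 10 and 11 to 15) as blocks this difference of Cxcl1 passed (0.59, SE 0.18, q = 0.036). For Cxcl5, IL-1β was 4.27-fold higher than TNFα (log2 difference 2.09, SE 0.20, q = 1e-04), and 2.37 and 2.09 higher on the log2 scale within slides 1 and 2. IL-6 was lower than TNFα by 7.98-fold for Cxcl1 (q = 3.69e-06) and by 3.78-fold for Cxcl5 (q = 7.6e-05), where 8.68% of probes were called. IL-1β was higher than IL-6 by 11.2-fold for Cxcl1 (q = 1.53e-05) and by 16.1-fold for Cxcl5 (q = 3.39e-06), where 0.419% were called.

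The full span between the 2 opposed treatments of the study, TNFα and TGFß1, was 106-fold for Cxcl1 (log2 difference 6.73, q = 1.89e-09) and 142-fold for Cxcl5 (7.15, q = 1.55e-09), in a comparison where 11.8% of probes were called. Between IL-1β and TGFß1 it was 150-fold for Cxcl1 and 605-fold for Cxcl5 (q = 2.38e-09 and 1.33e-10), where 17% of probes were called. Between IL-6 and TGFß1 it was 13.3-fold for Cxcl1 and 37.5-fold for Cxcl5 (q = 5.35e-07 and 4.27e-08), where 16.4% were called.

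Cxcl5 and Cxcl1 were also set against each other within each array, a measure that no scaling of the arrays can alter. Relative to the mean of the controls, log2 of Cxcl5 over Cxcl1 was 0.99 ± 0.08 with IL-1β, 0.47 ± 0.31 with IL-6, -0.61 ± 0.25 with TNFα and -1.03 ± 0.51 with TGFß1 (SD, n = 3 each), against a spread of 0.29 among the controls. A value above 0 means that Cxcl5 stood higher relative to Cxcl1 than in controls, and no test of this measure passed. IL-1β and TNFα arrays did not overlap and differed by 1.60 in this measure, with an exact permutation p of 0.1 (two-sided), which is the smallest that 3 against 3 arrays allow, and 0.125 after adjustment over the 10 pairs of groups. Of the other pairs, IL-6 against control gave an exact p of 0.2 and TNFα against TGFß1 an exact p of 0.3, and the remaining pairs gave 0.1.

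**Figure D2:**
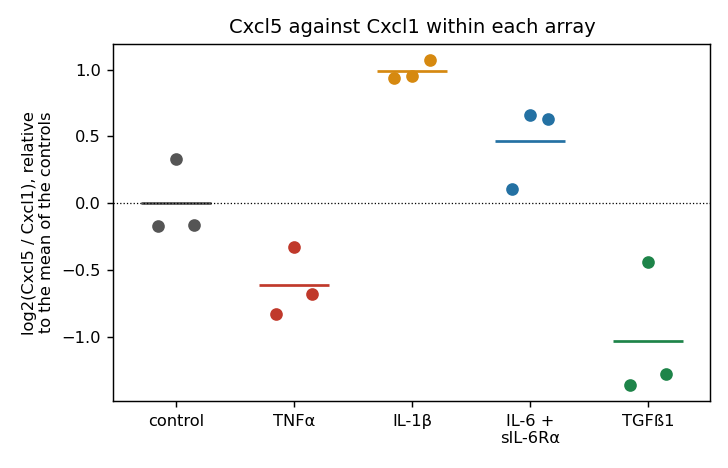
Log2 of the Cxcl5 signal over the Cxcl1 signal on each array, relative to the mean of the 3 control arrays, with a line at each group's mean. The IL-1β arrays lie around 0.99 and the TNFα arrays around -0.61, with the TGFß1 arrays lowest on average at -1.03.

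Cxcl2 was at or near background in all MEFs except those treated by TNFα. Its signal was 94.4, 80.3 and 55.1 on TNFα 4, 9 and 14, and 2.74, 2.91 and 3.51 on control 1, 6 and 11. It was 10.4, 6.61 and 8.10 on IL-1β 5, 10 and 15. It was 5.50, 3.61 and 3.87 on IL-6 3, 8 and 13, and 16.5, 10.3 and 3.01 on TGFß1 2, 7 and 12. The probe was well above background on the 3 TNFα arrays and on TGFß1 2, and on no other array. It entered the test through the TNFα arrays, the group in which it was high, so that it was bound to differ there.

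Set against the dimmest probe that was well above background on each control array, Cxcl2 was at least 5.55-fold higher with TNFα (q = 8.92e-05; mean scaled log2 levels -2.96 and -7.65). In the same way Cxcl2 was at least 5.94-fold lower with IL-1β than with TNFα (q = 0.00255) and at least 4.79-fold lower with IL-6 than with TNFα (q = 0.00018). The q-values of comparisons that include TNFα are a description and no independent support, since the probe was tested only through the TNFα arrays. With IL-1β and with IL-6 it was not well above background on any array, so no fold-change against control is given (q = 0.904 and 1). The group with the highest levels of Cxcl1 and Cxcl5 was thus one in which the array did not measure Cxcl2.

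With TGFß1, the fitted log2 difference of Cxcl2 from control was 1.51 (q = 0.046), but only 1 of the 3 TGFß1 arrays measured it, and no fold-change is given. The call was lost without control 1, 6 or 11 (q = 0.119, 0.111 and 0.0529), without TGFß1 2 (log2 difference 0.98, q = 0.19) and without TGFß1 7 (q = 0.133), while without TGFß1 12 the difference was 2.25 (q = 0.00111). All 3 TNFα arrays lay above all 3 TGFß1 arrays. The fitted difference between the 2 groups (3.17, q = 0.000915) gives no size for the same reason, and it was 0.99 under normexp background correction and 2.43 without TGFß1 12.

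Cxcl3 was not well above background on any of the 15 arrays and was not tested. Its signal was 2.63, 2.78 and 3.33 on control 1, 6 and 11, and 8.00, 13.2 and 8.08 on TNFα 4, 9 and 14. It lay between 2.68 and 3.75 on the 9 arrays of the other treatments. The 3 TNFα arrays were thus the 3 highest, without reaching the level the array calls well above background.

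**Figure D3:**
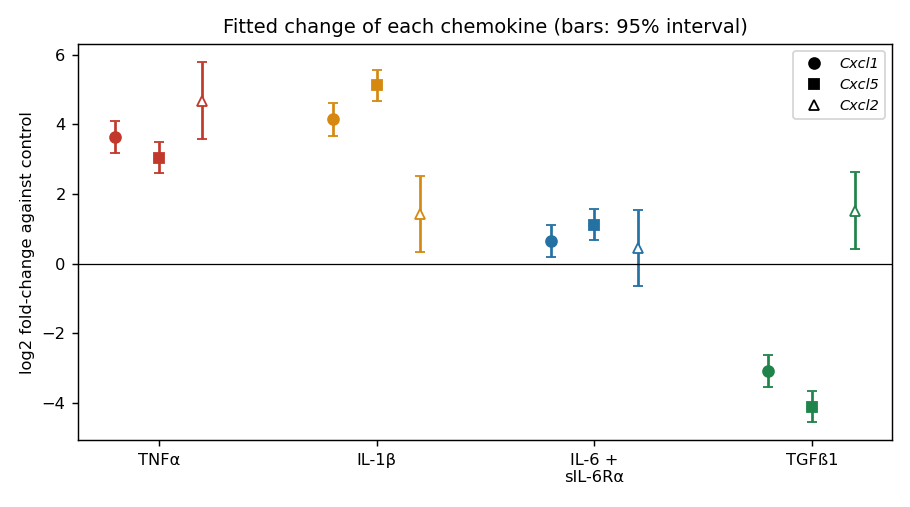
Fitted log2 fold-change against control of Cxcl1 (circles), Cxcl5 (squares) and Cxcl2 (open triangles, since its controls were not above background) in each treatment, with 95% intervals over 3 arrays a group. With IL-1β the values were 4.14 for Cxcl1 and 5.13 for Cxcl5, and with TGFß1 they were -3.09 and -4.12. Cxcl2 was clearly measured in all arrays of a group with TNFα alone. Its open triangles give no size of a change: with IL-1β and IL-6 no array was well above background, and with TGFß1 only 1 was.

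Of the remaining ELR chemokines, Ppbp, the precursor of platelet basic protein and the direct neighbour of Cxcl5, had the order of groups seen for Cxcl1 and Cxcl5, with smaller fold-changes. Its signal ranged from 69.7 to 107 in controls, 167 to 189 with TNFα, 188 to 223 with IL-1β, 133 to 148 with IL-6 and 21.0 to 21.6 with TGFß1, and only TNFα and IL-1β overlapped. The log2 fold-change of Ppbp was 1.05 with TNFα (q = 9.94e-05), 1.16 with IL-1β (q = 0.00083) and -1.97 with TGFß1 (q = 1.11e-06), and 0.58 with IL-6 did not pass (q = 0.175). In a fit on the control and IL-1β arrays alone the call with IL-1β did not pass (q = 0.107). Cxcl15 was not well above background on any array.

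The protein-coding genes next to the cluster were looked up after the values of the members were seen. Those tested, Rassf6 and Mthfd2l, were not called against control. Albfm1 and Epgn, the next genes outward, were not well above background on any array and could not be tested. Rassf6, before Cxcl5, had log2 differences of 1.71, 0.93, -0.40 and 0.20 with TNFα, IL-1β, IL-6 and TGFß1, and none passed (q = 0.109, 1, 1 and 0.851). Mthfd2l, after Cxcl2, had mean scaled log2 levels of 0.85 in controls, 0.90 with TNFα, 0.98 with IL-1β, 0.84 with IL-6 and 1.36 with TGFß1, with no call in any of the 4 comparisons. Within the cluster, Pf4, which encodes platelet factor 4, was not well above background on any array.

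Of 9 CXC ligands without the ELR motif, 8 were on the array and 3, namely Cxcl9, Cxcl10 and Cxcl12, were tested. Cxcl9 was tested only because the TNFα arrays measured it, so that it was bound to differ there. Cxcl10 and Cxcl12 were measured on all arrays, and both rose with TNFα, where 4.61% of the 13523 named genes tested were higher. With TGFß1 Cxcl12 rose, where 8.51% were higher. None of the 3 was called with IL-1β or IL-6, with 2 higher with IL-1β and 0 with IL-6 at an unadjusted p under 0.05 in limma. Cxcl10, an interferon-inducible ligand of CXCR3, had signals of 222 to 450 in controls, 14165 to 17485 with TNFα and 684 to 904 with IL-1β, a log2 fold-change of 5.74 with TNFα (q = 5.77e-05) and a difference of 1.33 with IL-1β that did not pass (q = 1). Cxcl10 was lower with IL-1β than with TNFα by a log2 difference of -4.42 (q = 0.000903), whereas Cxcl5 was higher. Cxcl9, of the same receptor, had signals of 133 to 434 with TNFα, at least 15.8-fold above control, and was not well above background on any array of the other groups. Cxcl12, a ligand of CXCR4, rose with TGFß1 by a log2 fold-change of 2.06 (q = 0.00014) and with TNFα by 1.04 (q = 0.0163). The latter call was lost without TNFα 4 or TNFα 14 (q = 0.052 and 0.0536). It was also lost with median scaling (q = 0.104) and in a fit on the control and TNFα arrays alone (q = 0.0733). CXCR2, its relative CXCR1 and the decoy receptor ACKR1 were looked for as Cxcr2, Cxcr1 and Ackr1, and none of the 3 could be tested: Cxcr2 and Cxcr1 were not well above background on any array, and Ackr1 on 1 array alone.

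Of 14 NF-κB components and feedback genes, all tested, 9 were higher and 0 lower with TNFα (median log2 difference 1.07, against 0.00 over the 13523 named genes tested, of which 4.61% were higher and 8.05% lower). With IL-1β 6 were higher and 0 lower (median 0.51, against -0.01 over all, of which 0.348% were higher and 0.00739% lower). The inhibitors Nfkbie, Tnfaip3 and Nfkbia had log2 fold-changes of 3.93, 3.84 and 2.42 with TNFα (q = 4.13e-08, 8.65e-09 and 2.46e-06) and of 1.23, 1.34 and 1.11 with IL-1β (q = 0.00577, 0.000348 and 0.0132). All 3 were lower with IL-1β than with TNFα, by -2.70, -2.50 and -1.31 on the log2 scale (q = 3.13e-06, 7.4e-07 and 0.000592). Relb, a subunit of the non-canonical pathway, rose by 1.94 with TNFα and by 1.21 with IL-1β (q = 1.3e-05 and 0.00706). In a fit on the control and IL-1β arrays alone only Nfkbiz of the 6 passed (q = 0.0392), and Tnfaip3, Relb, Nfkbia, Nfkbie and Bcl3 did not (q = 0.0541, 0.183, 0.191, 0.21 and 0.389). With median scaling the IL-1β calls of Relb, Nfkbia and Bcl3 did not pass (q = 0.217, 0.363 and 0.136).

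Nfkbiz, which encodes the co-activator IκBζ, had the opposite order, and a link to Cxcl5, which had it too, was not tested. Its log2 difference was 0.40 with TNFα, which did not pass (q = 0.0837), 1.49 with IL-1β (q = 0.000552) and 1.35 with IL-6 (q = 0.00408), and it was higher with IL-1β than with TNFα by 1.08 (q = 0.000812). Bcl3, a nuclear IκB protein, rose by 1.13 with TNFα (q = 0.00244), 1.23 with IL-1β (q = 0.0223) and 1.65 with IL-6 (q = 0.00778), and these were the 2 genes of the list called with IL-6, where 0.0961% of named genes were higher. In a fit on the control and IL-6 arrays alone neither passed (q = 0.275 for both), nor did Nfkbiz with median scaling (q = 0.068). The call of Bcl3 with IL-1β was lost without control 1, control 6, IL-1β 10 or IL-1β 15 (q = 0.101, 0.09, 0.0814 and 0.0972). That with IL-6 was lost without control 1, control 6 or IL-6 8 (q = 0.0526, 0.0542 and 0.0578). The call of Nfkbia with IL-1β was lost without control 6, control 11, IL-1β 5 or IL-1β 10 (q = 0.0573, 0.054, 0.0771 and 0.0635).

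**Figure D4:**
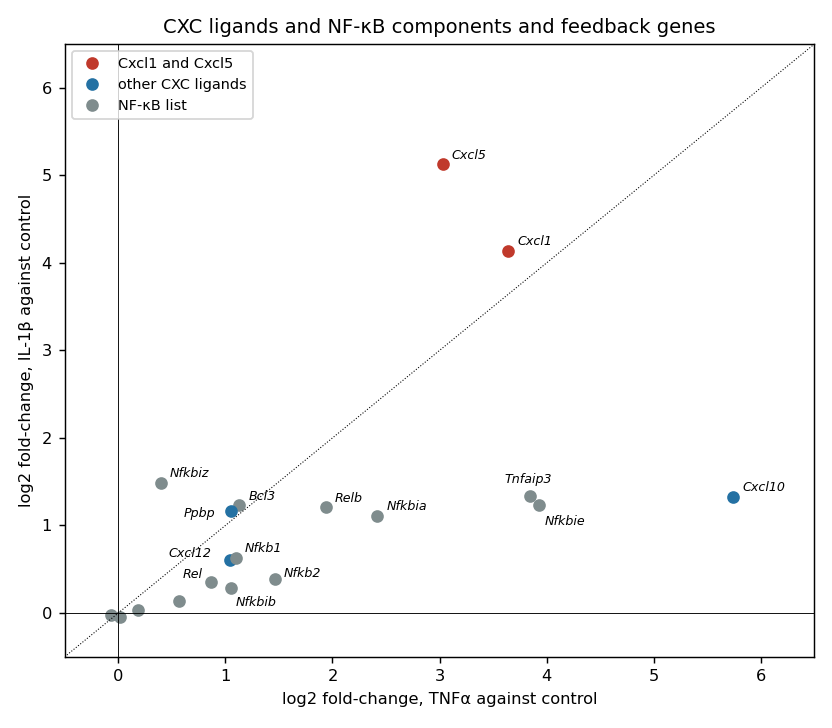
Log2 fold-change against control with TNFα (x axis) and IL-1β (y axis) for the 19 CXC ligands and NF-κB genes that were well above background on all control, TNFα and IL-1β arrays, with a dotted line where both are equal. Both axes share the control arrays, and 6 genes, Cxcl5, Cxcl1 and Nfkbiz among them, lie above the line.

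With TGFß1, 5 of the 14 NF-κB genes were lower and 0 higher (median -0.09, against 0.05 over all named genes tested, of which 8.51% were higher and 12.7% lower). They were Bcl3 (log2 fold-change -1.62, q = 0.000131), Nfkbia (-0.74, q = 0.00625), Tnfaip3 (-0.71, q = 0.00119), Nfkbie (-0.71, q = 0.0075) and Relb (-0.64, q = 0.0136). These falls were small beside those of Cxcl1 and Cxcl5 in the same arrays. Under normexp those of Tnfaip3, Nfkbie and Relb were below 1.5-fold (-0.55, -0.56 and -0.58), and with median scaling those of Nfkbia and Relb did not pass (q = 0.0832 and 0.134). That of Relb was also below 1.5-fold with the slide as a block (-0.54) and was lost without control 1 or control 11 (q = 0.043 with too small a fold-change, and 0.0552).

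Of the 4 C/EBP factors, which act with NF-κB at many acute phase genes, Cebpd was higher with IL-1β (1.43, q = 0.0132) and IL-6 (1.71, q = 0.00983) and lower with TNFα (-1.44, q = 0.000776) and TGFß1 (-0.82, q = 0.0142). Cebpd thus differed between IL-1β and TNFα by 2.87 (q = 1.17e-05), in a comparison where 4.83% of probes were called, 64.4% of them higher with IL-1β. A link between Cebpd and Cxcl5 was not tested. In fits on the 2 groups compared alone its calls with IL-1β and IL-6 did not pass (q = 0.206 and 0.275). Its call with IL-1β was lost without control 1, IL-1β 10 or IL-1β 15 (q = 0.0699, 0.0667 and 0.0743), with IL-6 without control 1, control 6 or IL-6 8 (q = 0.0535, 0.0502 and 0.058), and with TGFß1 without control 6, control 11 or TGFß1 2 (q = 0.0515, 0.052 and 0.0638). Cebpa fell with TNFα (-1.81, q = 0.0026) and TGFß1 (-2.07, q = 0.000613), and Cebpb fell with TGFß1 (-0.77, q = 0.000256). Of 10 genes for mRNA decay and stability, all tested, 2 rose and 0 fell with TNFα (median 0.13, against 4.61% higher and 8.05% lower and a median of 0.00 over all named genes). They were Arid5a (1.27, q = 0.00614), which protects inflammatory transcripts, and Zfp36 (0.79, q = 0.00202), which encodes tristetraprolin and promotes their decay. With TGFß1 2 rose and 1 fell (median 0.17, against 8.51% higher, 12.7% lower and 0.05 over all). Arid5a rose (1.94, q = 0.000221), as did Zc3h12a (2.22, q = 0.0207), which encodes the RNase regnase-1 and whose call was lost without control 11, TGFß1 2 or TGFß1 12 (q = 0.0835, 0.0759 and 0.0843), and Zfp36l1 fell (-0.91, q = 0.00159). Zc3h12a was well above background on 2 of 3 control arrays. It was tested only through TNFα, IL-1β and TGFß1, groups in which it was higher than in controls. With IL-1β and with IL-6 0 of the 10 were called by limma, and 1 was higher in each at an unadjusted p under 0.05. The largest difference of the list with IL-1β was 2.88, that of Zc3h12a. With the slide as a block 1 of the 10 was called higher with IL-1β.

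Of 18 receptors and adaptors of the cytokines used, all tested, 1 rose and 2 fell with TNFα (median -0.19), where 4.61% of all named genes were higher and 8.05% lower. With IL-1β or IL-6 0 were called by limma (1 and 3 were higher at an unadjusted p under 0.05). With TGFß1 1 rose and 8 fell (median -0.47, against 0.05 over all named genes, of which 8.51% were higher and 12.7% lower). Il1r2, the decoy receptor of IL-1, rose with TNFα (4.75, q = 0.000172, with 1 of 3 control arrays above background). Il1r2 was well above background on all arrays only with TNFα and IL-1β, and was thus tested through groups in which it was high. Il6ra and Tnfrsf1a, receptor chains of IL-6 and of TNFα, fell with TNFα (-1.24 and -0.73, q = 0.0266 and 0.0121), calls lost for Il6ra without control 6, control 11, TNFα 4 or TNFα 14 (q = 0.0946, 0.0552, 0.103 and 0.0856) and for Tnfrsf1a without TNFα 4 (q = 0.0502). With TGFß1 Il17ra rose (0.99, q = 0.000725), and the largest falls were those of Il6ra (-2.54, q = 0.000213), Traf3ip2 (-1.53, q = 3.33e-05), an adaptor of IL-17 receptors, and Il6st (-1.38, q = 0.000498), the signalling subunit gp130. Il1r1, the signalling receptor of IL-1, named after its value was seen, fell by 1.22 on the log2 scale with TGFß1 (q = 0.000266).

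Of 7 other products that act on neutrophils 5 were tested. Of these, 3 rose with TNFα, against 4.61% of all named genes, 3 rose with IL-1β, against 0.348%, and 2 fell with TGFß1, against 12.7%. Saa3, an acute phase protein, rose with both (7.82 and 7.43, q = 1.04e-05 and 0.000243). Lcn2, which encodes neutrophil gelatinase-associated lipocalin, had log2 differences of 6.52 with IL-1β (q = 0.0093) and -0.20 with TNFα (q = 0.914), and was higher with IL-1β than with TNFα by 6.72 (q = 0.00107), though its call against control was lost without control 1 or control 11 (q = 0.0571 and 0.054) and in a fit on the control and IL-1β arrays alone (q = 0.103). Csf2, the growth factor GM-CSF, rose with TNFα (5.35, q = 0.000114, with 1 of 3 control arrays above background, so that it was tested through the groups in which it was high), and its difference of 2.97 with IL-1β did not pass (q = 0.0926). C3 rose with TNFα (4.05, q = 0.00188) and IL-1β (4.02, q = 0.0298), the latter call being lost without control 1, control 11, IL-1β 10 or IL-1β 15 (q = 0.146, 0.132, 0.124 and 0.104), without a filter on dim probes (q = 0.0629) and on the control and IL-1β arrays alone (q = 0.208). With TGFß1 C3 fell by 2.36 on the log2 scale (q = 0.0221), a call lost without control 6, control 11, TGFß1 2 or TGFß1 7 (q = 0.0868, 0.0547, 0.0585 and 0.0744), and S100a8, a calcium-binding protein of neutrophils, fell by 1.94 (q = 0.0176), a call lost without control 6, TGFß1 7 or TGFß1 12 (q = 0.0542, 0.0507 and 0.0522). Csf3, the growth factor of neutrophils, was not tested.

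Of 7 proteases that trim CXC chemokines 5 were tested, and 3 rose with TNFα, against 4.61% of all named genes. They were the matrix metalloproteinases Mmp13 (5.84, q = 1.77e-08), Mmp9 (4.31, q = 1.19e-05) and Mmp3 (3.89, q = 1.3e-05). The other 2 did not pass with TNFα, with differences of -0.97 for Mmp2 (q = 0.0818) and 0.78 for Mmp8 (q = 0.13). With IL-1β Mmp13 rose by 2.60 (q = 0.000212), where 0.348% of named genes were higher, and with TGFß1 Mmp3 fell by 2.83 on the log2 scale (q = 9.78e-05), where 12.7% were lower. Mmp13, Mmp9 and Mmp3 were lower with IL-1β than with TNFα, by -3.24 for Mmp13, -2.60 for Mmp9 and -2.38 for Mmp3 (q = 5.4e-06, 0.00117 and 0.00113).

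Over the 15 arrays, the gene most like Cxcl1 among 13486 named genes with a value on every array was Cxcl5 (Pearson r 0.978, Spearman rho 0.986), followed by Fgf7 (r 0.972), a growth factor for epithelial cells, Nid1 (0.968), a basement membrane glycoprotein, Ccl2 (0.963), which encodes the monocyte-attracting chemokine MCP-1, and Car13 (0.957). Those most like Cxcl5 after Cxcl1 were Nid1 (r 0.975), Car13 (0.963), Ppbp (0.955) and Zfp760 (0.941). For Cxcl2 they were Slfn3 (r 0.95), Trim69 (0.937), Trp53 (0.935), Ttc39c (0.931) and Ankrd6 (0.925), none of which is a chemokine. Between Cxcl2 and Cxcl1 r was 0.435, and between Cxcl2 and Cxcl5 it was 0.275. These values follow the 5 group levels that the 15 arrays share, and for Cxcl2 they rest on values near background, so they are a description.

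The cells had the markers of fibroblasts. All 9 fibroblast markers were well above background on every array, with 1 called higher and 4 lower with TNFα (4.61% and 8.05% of all named genes) and 1 higher and 3 lower with TGFß1 (8.51% and 12.7%). Among them Col3a1 fell with TNFα (-2.17, q = 0.00661), Pdgfra fell with TGFß1 (-2, q = 0.000105), and Dcn rose with TNFα (1.91, q = 0.0102) and fell with TGFß1 (-1.82, q = 0.00789). Of 9 neutrophil markers, the receptor Cxcr2, S100a9 and Ngp were not well above background on any array, and Csf3r, Elane and S100a8 were well above background on every array. Camp was well above background on all control, TNFα and IL-1β arrays, and its differences of 2.31 with IL-1β (q = 0.152) and 1.54 with TNFα (q = 0.0726) did not pass. The summed signal of the list was 20297 to 32909 in controls, 23537 to 31386 with TNFα, 21482 to 30670 with IL-1β, 20992 to 32779 with IL-6 and 16423 to 27926 with TGFß1, and Csf3r, the receptor of the growth factor G-CSF, with signals from 16272 to 32349, made up nearly all of it. Of 8 macrophage and leukocyte markers, Ptprc, Adgre1, Lyz2 and Laptm5 were not well above background on any array, while Itgam, Csf1r, Cd68 and Cd14 were so on every array. Itgam had signals from 3067 to 9379, and none of its differences from control passed (0.44, 0.11, 0.07 and 0.37 with TNFα, IL-1β, IL-6 and TGFß1, with q = 0.606, 1, 1 and 0.605). Cd14 rose with TNFα (0.78, q = 0.0029). Of 6 epithelial markers 2 were tested. Krt8, a keratin, was at least 3.32-fold higher with TGFß1, the group through which alone it entered the test, than in controls. Its call was lost without control 6 or TGFß1 2 (q = 0.0686 and 0.0667). Krt18, the other keratin tested, also entered through the TGFß1 arrays alone. It was well above background on 2 of 3 control arrays, with signals of 13.4 to 52.3 in controls and 38.5 to 150 with TGFß1. Krt14 was well above background on 1 control array, and Epcam, Cdh1 and Krt5 on no control array. Of 5 endothelial markers, Pecam1 was well above background on every array, with signals from 25.2 to 52.0. Cdh5, Kdr and Tek were so on no array, and Vwf on 1 TNFα array alone. The part of all these markers in the results above was not tested.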

How the data were processed

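Total RNA of the 15 MEF cultures was hybridised to one-colour Agilent arrays. Per the labels, the authors extracted signals with Agilent Feature Extraction 10.7.3.1, and the deposited files hold the background-corrected intensity of each spot, to which the deposited value table was identical. Here, log2 of this intensity was taken minus each array's 75th percentile over spots that are not controls, and spots of 1 probe were averaged. Probes were named through their RefSeq transcript (GRCm38.p6), and where a gene of a list had several probes the brightest on average stood for it. Background correction by normexp (offset 50), tried as an alternative, ran on the median signals of spot and background in place of the mean signals that had been planned.

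All 15 arrays were fitted with limma 3.58.1 in R 4.3.3 with 5 groups and no covariate, two-sided, with Benjamini-Hochberg adjustment (q-value) over the 29333 probes tested. The p-values measure the spread between these arrays, and the number of arrays limits their precision. Alternatives were normexp, quantile normalization, median scaling, no filter on dim probes, the slide as a block, the slide and the run of label numbers as blocks, fits on the groups compared alone, and leaving out each array in turn. The fit was tested on simulated data. The members, lists and comparisons were chosen with earlier results of these data known. The genes named were the members, the 5 genes most like each member, up to 4 called genes with the largest differences of each list, and all called genes of a list with 5 or fewer. Further genes were named outside this rule. Among them were the neighbours of the cluster and genes that were not called, such as Mmp2, Mmp8, Camp and Itgam.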

Additional observations from a re-analysis of the deposited data

How the results depend on the processing

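For Cxcl1, Cxcl2 and Cxcl5, 379 of the 393 values recomputed under the alternatives kept their side of the threshold, and 376 of these also kept their direction. The other 3 were those of the Cxcl2 difference between IL-1β and TGFß1, not called at -0.09, which was 0.06 without IL-1β 10, 0.44 without TGFß1 2 and 0.11 without TGFß1 7. No called value turned its direction. All calls of Cxcl1 and Cxcl5 with TNFα, IL-1β and TGFß1 against control held under every alternative run, with log2 fold-changes from 3.51 to 3.80, 4.06 to 4.22 and -3.27 to -2.60 for Cxcl1, and from 2.87 to 3.22, 5.01 to 5.29 and -4.23 to -3.30 for Cxcl5. Cxcl2 with TNFα against control held at fitted values from 1.27 (normexp) to 4.92. Its calls with TNFα are among the 379 values, though in the main fit it was tested only through the TNFα arrays.

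The difference of Cxcl5 between IL-6 and control passed with median scaling (1.09), with the slide as a block (1.11) and with the slide and the run of label numbers as blocks (1.11). It did not pass without any 1 array, with values from 0.98 to 1.28. The slide as a block changed no other call of Cxcl1, Cxcl2 or Cxcl5. The difference of Cxcl1 between IL-1β and TNFα passed with the slide and the run of label numbers as blocks (0.59). Cxcl2 with TGFß1 against control lost its call under normexp (0.28), median scaling (1.54), no filter on dim probes (1.51) and, in an alternative chosen after seeing the data, on the 9 control, TNFα and TGFß1 arrays alone (1.51). With 1 array left out it ranged from 0.98 to 2.25. Cxcl2 between IL-6 and TGFß1 ranged from -1.80 to -0.53 with 1 array left out and passed only without TGFß1 12. The cause of these shifts was not tested.

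Counts over all probes moved more than the members did. With IL-1β 74 probes were called and 16 to 320 under the alternatives, with IL-6 19 and 0 to 228, with TNFα 2986 and 1896 to 4513, with TGFß1 5283 and 3482 to 6575. With TNFα 40.5% of calls were higher, and 29.8% with median scaling, which shifts all log2 differences with TNFα by -0.09. Of 16 genes named in the text beside the members and called with IL-1β, 12 did not pass in a fit on the control and IL-1β arrays alone (q from 0.0541 to 0.596) and 6 did not pass with median scaling. Of 3 called with IL-6, all 3 did not pass in a fit on those 2 groups alone (q = 0.275). With TNFα 3 of 27 and with TGFß1 3 of 29 were lost in such fits, among them Arid5a with TNFα (q = 0.0661). Each member had a single probe, so no other probe could be tried, and Cxcl3 and most of Cxcl2 lay below what the array measures.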
